A study of Oryza sativa with 6 samples.

Results

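The genes described here are 4 neighbouring loci on rice chromosome 10, LOC_Os10g31510, LOC_Os10g31540, LOC_Os10g31560 and LOC_Os10g31620, out of 55986 distinct locus names in the expression files. LOC_Os10g31510, LOC_Os10g31540 and LOC_Os10g31620 are annotated as glycine-rich cell wall structural proteins in the gene list of the study, whereas LOC_Os10g31560 carries no annotation in the sources used here. They were picked by name, with their lower expression in both overexpression lines already known, so their values against the wild type (WT) are given as a description and without a test. All 4 loci passed the minimum mean of 1 FPKM (fragments scaled to the length of the transcript and the depth of the library) that 20627 loci reached.

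Glycine-rich structural proteins are secreted into the cell wall, where they form part of its protein network beside the extensins and the proline-rich proteins. In French bean and petunia they have been found in the vascular tissue, mainly in the walls of the first-formed xylem. How reads shared by similar copies, or by overlapping and antisense genes, were assigned is not given in the sources used here, so the level of any one copy may hold reads of another.

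RNA-seq was performed on roots of rice cultivar ZH11 (*Oryza sativa*), with 2 libraries for each of 3 genotypes. OE15 and OE20 are independent transgenic lines, each 1 transformation event, that carry the *OsMYB305* coding sequence behind a constitutive promoter of cauliflower mosaic virus, and the WT is the untransformed cultivar. All seedlings were 14 days old according to the labels and received low N, 0.288 mM NH4NO3, in what the labels call MS solution and the methods call the solution of Yoshida. Nothing in the sources says whether the 2 libraries of a genotype came from separate plants or cultures, so p-values measure only the spread between these libraries. *OsMYB305* (LOC_Os01g45090), a MYB transcription factor gene, was at 150.2 and 148 FPKM in OE15, 81.3 and 80.2 FPKM in OE20, against 0.0388 and 0.0576 FPKM in the WT, as the labels require.

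The libraries had summed FPKM of 711623 to 731188, and 46.4% to 47.8% of their loci were listed at 0. Relative to WT replicate 1, their depth ran from 0.987 to 1.37, with WT replicate 2 the deepest. It was read from the most frequent ratio of the FPKM in WT replicate 1 to the FPKM in the library, over 961 loci. These loci were above 0 and under 0.1 FPKM in every library. The root nitrate uptake genes *OsNRT2.1*, *OsNRT2.2* and *OsNAR2.1* were above 5 FPKM in every library. All 3 were higher in every OE library than in both WT libraries (18.9% of all tested loci were), with *OsNAR2.1* at 126 and 123 FPKM in OE15, 127 and 125 FPKM in OE20, and 86.1 and 91.4 FPKM in the WT. The silicon transporter genes *Lsi1* and *Lsi2*, also root markers, were above both WT libraries in every OE library too. For *Lsi2* in OE15 the difference was very small, with 547 and 549 FPKM against 543 and 546 FPKM in the WT. In OE20 *Lsi2* was at 619 and 615 FPKM. The part of these root markers in the results was not tested. A set of 5 green tissue markers (Rubisco small subunit and chlorophyll a/b-binding protein genes) was not at 0 either, with a summed level of 149 and 149 FPKM in OE15, 148 and 144 FPKM in OE20, and 145 and 153 FPKM in the WT. These sums overlapped, but within the set 3 loci were lower and 1 was higher in all OE libraries than in both WT libraries. Over all tested loci the shares were 14.8% lower and 18.9% higher. LOC_Os12g17600, 1 of the 3 lower loci, was at 0.0684 to 0.369 FPKM, under the minimum.

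All 4 loci were lower in both *OsMYB305*-OE lines than in the WT. Summed over LOC_Os10g31510, LOC_Os10g31540 and LOC_Os10g31620, expression was 39.9 ± 0.375 FPKM in OE15 and 40.1 ± 3.74 FPKM in OE20, against 84.1 ± 0.303 FPKM in the WT (SD, n = 2 each). These sums are 47.5% and 47.6% of the WT mean. The libraries gave 39.6 and 40.2 FPKM in OE15, 42.7 and 37.4 FPKM in OE20, and 83.9 and 84.3 FPKM in the WT, so that no OE library came near the WT.

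LOC_Os10g31510, a glycine-rich wall protein gene, was at 6.52 and 7.60 FPKM in OE15, 7.62 and 7.36 FPKM in OE20, against 15.3 and 16.3 FPKM in the WT. Every OE library lay below both WT libraries, by at least 7.71 FPKM. As log2(FPKM + 0.1), a scale on which changes of weakly expressed genes come out too small, OE15 differed from the WT by -1.15 and OE20 by -1.07 (standard error 0.087). Among the 20627 loci, the gene stood at percentile 37.2 and 41.3 in OE15 and 42.0 and 40.9 in OE20, against 62.0 and 63.2 in the WT.

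LOC_Os10g31540, also a glycine-rich wall protein gene, was at 13.0 and 14.0 FPKM in OE15, 16.9 and 13.4 FPKM in OE20, against 34.4 and 34.1 FPKM in the WT. By group means it had the largest relative fall of the 4 loci in both lines, with 39.4% of the WT mean in OE15 and 44.2% in OE20. The log2 differences were -1.34 and -1.18 (standard error 0.10). In OE20 replicate 1 alone it was at 49.4% of the WT mean. There LOC_Os10g31510 was at 48.2% and LOC_Os10g31560 at 33.4%, both lower, and LOC_Os10g31620 at 53.4%. Of the 2 OE20 libraries, replicate 1 was the higher one, and it still lay 17.2 FPKM below the lower WT library.

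LOC_Os10g31620 encodes the third glycine-rich wall protein. Its expression was 20.1 and 18.6 FPKM in OE15, 18.2 and 16.7 FPKM in OE20, against 34.2 and 33.9 FPKM in the WT. The groups did not overlap, but the fall was the smallest of the 3 glycine-rich genes, with log2 differences of -0.81 in OE15 and -0.96 in OE20 (standard error 0.061). In the WT this gene and LOC_Os10g31540 stood at nearly the same level, with a ratio of LOC_Os10g31620 to LOC_Os10g31540 of 0.993 and 0.994. In the OE lines the ratio was 1.55 and 1.33 in OE15 and 1.07 and 1.245 in OE20, so that LOC_Os10g31620 was the most abundant of the 3 in all 4 OE libraries. Between the other pair the ratio overlapped, with LOC_Os10g31540 at 1.997 and 1.84 times LOC_Os10g31510 in OE15 and 2.22 and 1.82 times in OE20, against 2.24 and 2.1 times in the WT.

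LOC_Os10g31560, the locus with no annotation, had the lowest level. It was at 3.75 and 3.92 FPKM in OE15, 2.37 and 4.29 FPKM in OE20, against 7.58 and 6.62 FPKM in the WT. No OE library reached the WT range, but the gap to the nearest WT library was only 2.32 FPKM in OE20 and the OE20 libraries differed from each other more, in relative terms, than in any of the glycine-rich genes. The log2 difference from the WT was -0.87 (OE15) and -1.12 (OE20) with a standard error of 0.24, and the OE20 value was -0.71 without OE20 replicate 1 and -1.54 without OE20 replicate 2.

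**Figure D1:**
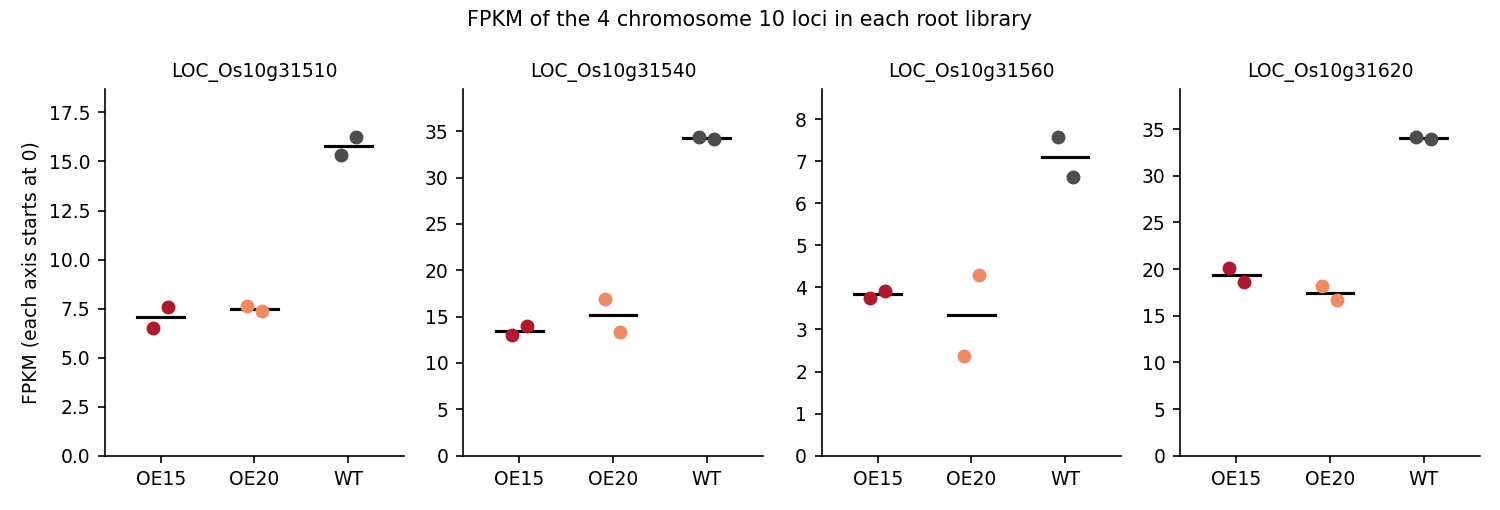
FPKM (vertical axes, each from 0) of the 4 loci in the roots of OE15, OE20 and the WT. Each point is 1 library and each line the mean of 2 libraries. In all 4 panels the 4 OE points lie below both WT points, for LOC_Os10g31540 at 13.0 to 16.9 FPKM against 34.1 and 34.4 FPKM, and the OE20 points of LOC_Os10g31560 are spread most widely relative to their mean, at 2.37 and 4.29 FPKM.

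Libraries of the OE lines and the WT did not overlap in 4 of the 4 loci, where 14.8% of all loci tested had 4 OE libraries below both WT libraries. With no test applied, 4 of 4 loci were lower by above 1.5-fold in OE15 (3.54% of all loci), in OE20 (2.77%) and in both lines (1.58%). Since the loci were chosen for being lower, none of these counts says anything about them beyond the choice. The median log2 difference of all 20627 loci was 0.023 in OE15 and 0.016 in OE20. At every alternative setting each locus with a value stayed lower by above 1.5-fold in both lines.

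The difference between the lines was not itself used to choose the loci, and it was tested directly. The loci were, however, chosen with lower expression in both lines known, which favours similar levels in OE15 and OE20. A lack of calls between the lines is therefore partly set by the choice. The transgene itself was higher in OE15, with a log2 difference between the lines of 0.89 (adjusted p = 0.000886 from limma). Of the 4 loci, limma called 0 between OE15 and OE20 (adjusted p below 0.05 with a change of over 1.5-fold), where 2.06% of all loci were called, 0.863% as lower and 1.2% as higher in OE15, and 1 had an unadjusted p under 0.05. OE15 minus OE20 was -0.09 for LOC_Os10g31510 (95% interval -0.29 to 0.12, adjusted p = 0.562), -0.16 for LOC_Os10g31540 (-0.40 to 0.09, adjusted p = 0.373) and 0.26 for LOC_Os10g31560 (-0.32 to 0.83, adjusted p = 0.548), all on the log2 scale and from limma. LOC_Os10g31620 was the 1 locus with an unadjusted p under 0.05 and with both OE15 libraries above both OE20 libraries (29.7% of all loci had this order). Its difference was 0.15 (95% interval 0.01 to 0.30, adjusted p = 0.164 from limma). These intervals leave room for a change in either direction in the first 3 loci, most of all in LOC_Os10g31560.

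The loci that lie between them by name were examined as context. Of 7 such loci, 5 were below the minimum, with at most 0.0448 FPKM in any library, and LOC_Os10g31550 and LOC_Os10g31600 were listed at 0 in all 6 libraries. The other 2, LOC_Os10g31520 and LOC_Os10g31530, lie between LOC_Os10g31510 and LOC_Os10g31540, and neither has an annotation in the sources used here. LOC_Os10g31520 was at 26.9 and 25.1 FPKM in OE15, 25.8 and 24.6 FPKM in OE20, against 26.0 and 25.2 FPKM in the WT. LOC_Os10g31530 was at 57.7 and 56.4 FPKM in OE15, 52.6 and 57.2 FPKM in OE20, against 55.9 and 54.8 FPKM in the WT. In both loci the genotypes overlapped. In limma 0 of the 2 loci were called in either line, and 0 had an unadjusted p under 0.05, where 5.5% (OE15) and 3.11% (OE20) of all loci were called.

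The 95% intervals of these loci were narrow. For LOC_Os10g31520 the log2 difference from the WT was 0.02 in OE15 (95% interval -0.10 to 0.15, adjusted p = 0.802 from limma) and -0.02 in OE20 (-0.15 to 0.10, adjusted p = 0.825). For LOC_Os10g31530 it was 0.04 in OE15 (-0.07 to 0.16, adjusted p = 0.554 from limma) and -0.01 in OE20 (-0.12 to 0.10, adjusted p = 0.897). Falls of the size seen in the neighbouring glycine-rich genes lie outside these intervals. The same held for LOC_Os10g31500, the locus next to LOC_Os10g31510 on the other side, at 73.6 and 70.4 FPKM in OE15, 68.0 and 72.2 FPKM in OE20, against 72.8 and 73.6 FPKM in the WT.

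**Figure D2:**
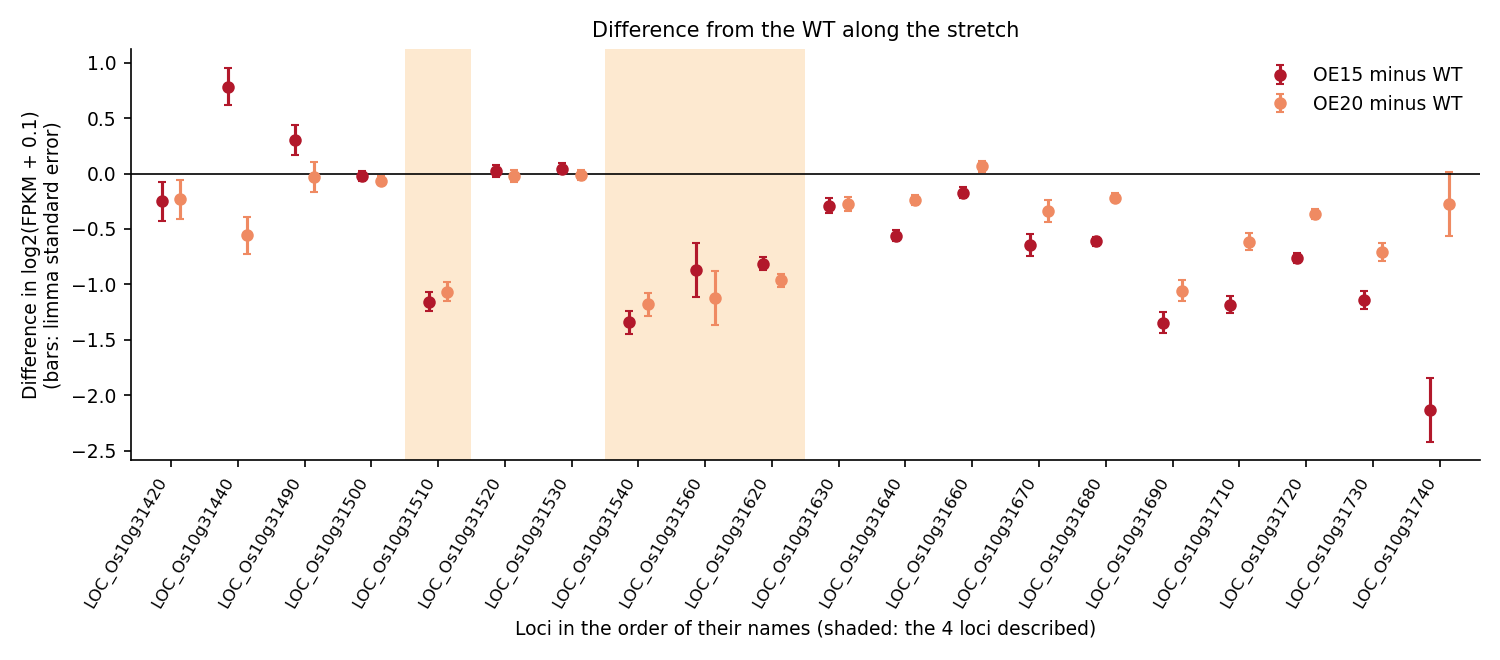
Difference from the WT in log2(FPKM + 0.1) (vertical axis) for the 20 tested loci from LOC_Os10g31420 to LOC_Os10g31740, in the order of their names. Dark red points are OE15 minus WT, orange points OE20 minus WT, bars the standard error from limma, and shading marks the 4 loci described. The shaded loci lie between -0.81 and -1.34, LOC_Os10g31520 and LOC_Os10g31530 between them lie within 0.05 of 0, and OE15 lies below OE20 at most loci on the right.

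Upstream and downstream are used here for lower and higher locus numbers, whatever the strand. On the upstream side, from LOC_Os10g31400 to LOC_Os10g31500, 4 of 5 loci were tested. Limma called 1 of them higher in OE15 (2.9% of all loci were called higher) and 0 in OE20, where 1 had an unadjusted p under 0.05. The called locus was LOC_Os10g31440, at 3.78 and 5.26 FPKM in OE15, 1.67 and 1.72 FPKM in OE20, against 2.56 and 2.54 FPKM in the WT. Its log2 difference in OE15 was 0.78 with a standard error of 0.17 (adjusted p = 0.0178 from limma), and the call was lost without WT replicate 1 (adjusted p = 0.0767), WT replicate 2 (0.0702) or OE15 replicate 2 (0.0914) and with no minimum on expression (0.0695). This locus was named after its values were seen.

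On the downstream side, from LOC_Os10g31630 to LOC_Os10g31740, 10 of 12 loci were tested and most were lower in the OE lines. Limma called 7 of the 10 lower in OE15 and 3 lower in OE20, with none higher, where 2.59% (OE15) and 1.64% (OE20) of all loci were called lower. The 3 called in OE20 were called in both lines, as were 1.08% of all loci. An adjusted p under 0.05 was found for 10 of 10 loci in OE15 and 7 of 10 in OE20, against 20.4% and 11.9% of all loci. In OE15 the 10 became 8 with no minimum, and 9 without the trend or with separate fits. The median log2 difference over the 10 loci was -0.70 in OE15 and -0.31 in OE20. All OE libraries lay below both WT libraries in 9 of the 10, against 14.8% of all loci, LOC_Os10g31660 being the exception. LOC_Os10g31740 passed the minimum only through OE20 and the WT, and without it 6 of 9 loci were called lower in OE15 and 3 of 9 in OE20. Without WT replicate 1 the called loci over both sides numbered 5 instead of 8 in OE15, with LOC_Os10g31670 and LOC_Os10g31680 lost downstream, and 2 instead of 3 in OE20, with LOC_Os10g31710 lost. The 7 downstream loci with an adjusted p under 0.05 in OE20 became 4 without WT replicate 1, OE20 replicate 1 or OE20 replicate 2, with no minimum, or without the trend. Without OE15 replicate 1, the log2 differences of LOC_Os10g31670 and LOC_Os10g31680 in OE15 were -0.50 and -0.57, under the limit of 1.5-fold. The study lists LOC_Os10g31690, LOC_Os10g31710 and LOC_Os10g31730 as changed in these same libraries, so their calls are not independent of that list.

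A further 2 glycine-rich cell wall structural protein genes, LOC_Os10g31690 and LOC_Os10g31710, lie on this side. LOC_Os10g31690 was at 4.94 and 5.39 FPKM in OE15, 5.92 and 6.76 FPKM in OE20, against 12.6 and 13.9 FPKM in the WT. It fell in both lines, with log2 differences of -1.34 (adjusted p = 0.000194 from limma) and -1.06 (adjusted p = 0.000956) for OE15 and OE20. The fall of this gene was thus of the size found in LOC_Os10g31510 and LOC_Os10g31540, although 7 tested loci lie between it and LOC_Os10g31540 by name.

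LOC_Os10g31710 was the most abundant glycine-rich gene of the stretch. It was at 58.2 and 65.6 FPKM in OE15, 90.6 and 92.8 FPKM in OE20, against 151 and 131 FPKM in the WT. For OE15 the log2 difference was -1.18 (adjusted p = 0.000128 from limma), and for OE20 it was -0.62 (adjusted p = 0.00363). In OE20 it was -0.52, below the limit of 1.5-fold, without WT replicate 1. Unlike in the other 4 glycine-rich genes, the adjusted p for the difference between the lines was under 0.05, with OE15 lower than OE20 by a log2 difference of -0.57 (95% interval -0.75 to -0.39, adjusted p = 0.00604 from limma). For LOC_Os10g31690 that difference was -0.29 (95% interval -0.52 to -0.06, adjusted p = 0.106). Whether the difference between the lines itself differed between one glycine-rich gene and another was not tested.

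Summed over all 5 glycine-rich genes, expression was 107 ± 5.94 FPKM in OE15 and 138 ± 1.61 FPKM in OE20, against 238 ± 12.5 FPKM in the WT (SD, n = 2 each), which is 44.9% and 57.9% of the WT mean. LOC_Os10g31710 supplied 56.6% and 59.0% of this sum in OE15 and 65.1% and 67.7% in OE20, against 61.0% and 57.2% in the WT. The 2 lines therefore had about the same level of the 3 genes described first, while the level of all 5 was higher in OE20.

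**Figure D3:**
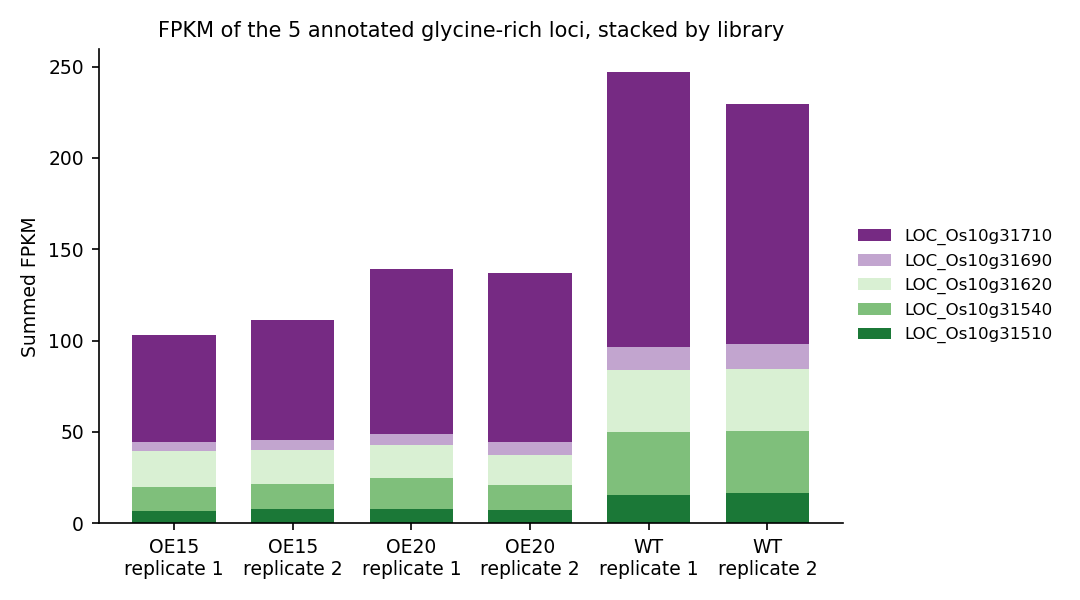
Summed FPKM (vertical axis, from 0) of the 5 loci annotated as glycine-rich cell wall structural proteins, stacked by locus, in each of the 6 root libraries. The green parts (LOC_Os10g31510, LOC_Os10g31540 and LOC_Os10g31620) add to 37.4 to 42.7 FPKM in the OE libraries and to 83.9 and 84.3 FPKM in the WT libraries, whereas the dark purple part (LOC_Os10g31710) is larger in OE20 than in OE15.

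Along the downstream side OE15 was lower than OE20 at nearly every locus. Both OE15 libraries were below both OE20 libraries in 9 of the 10 loci, against 0 of the 4 loci described and 28.1% of all loci. Tested with limma, the difference between the lines had an adjusted p under 0.05 for 7 of the 10 downstream loci, 0 of the 4 loci described and 11.6% of all loci, and it was above 1.5-fold as well for 1 of the 10, LOC_Os10g31740. That locus had 0.435 and 0.242 FPKM in OE15, under the minimum, and its call was lost without OE20 replicate 1 (adjusted p = 0.0613 from limma) or OE20 replicate 2 (0.0573). The 7 loci became 3 without OE20 replicate 1, 2 without OE20 replicate 2 and 3 without the trend in limma. Whether the 4 loci and the downstream loci differed from each other in this was not tested. The 4 loci were chosen with lower expression in both lines known, which favours similar levels in the lines. LOC_Os10g31730, annotated as a retrotransposon protein, was at 20.8 and 22.7 FPKM in OE15, 27.2 and 31.8 FPKM in OE20, against 47.2 and 48.8 FPKM in the WT. It fell in both lines, with log2 differences of -1.14 in OE15 (adjusted p = 0.000181 from limma) and -0.70 in OE20 (adjusted p = 0.00236), and OE15 minus OE20 was -0.44 (adjusted p = 0.0176). LOC_Os10g31660 had the highest level of the stretch and no annotation in the sources used here, and it was named after its values were seen. It was at 461 and 513 FPKM in OE15, 572 and 575 FPKM in OE20, against 548 and 548 FPKM in the WT, so that both OE15 libraries lay below the WT. OE15 minus WT was -0.17 (adjusted p = 0.049 from limma, 0.0158 to 0.193 over the alternatives), and OE20 minus WT was 0.07 (adjusted p = 0.438) and turned to -0.01 with quantile normalization.

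**Figure D4:**
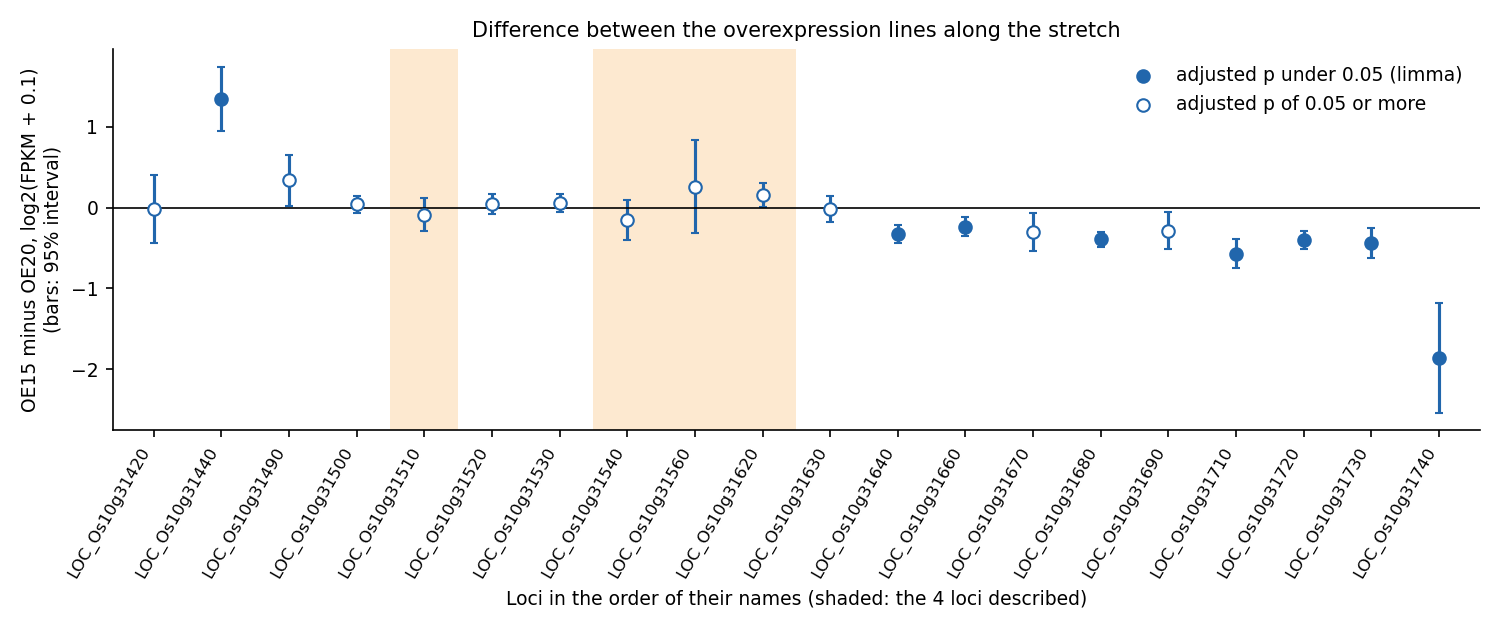
OE15 minus OE20 in log2(FPKM + 0.1) (vertical axis) for the same 20 loci in the order of their names, with 95% intervals from limma. Filled points have an adjusted p under 0.05, open points do not, and shading marks the 4 loci described. All 4 shaded points are open and lie between -0.16 and 0.26, whereas 7 of the 10 points from LOC_Os10g31630 onward are filled and below 0 (2 or 3 of them without an OE20 library).

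Genes of secondary wall synthesis were used as the list of other wall genes. The study chose its 12 genes from these same libraries, so their direction is no independent evidence. Of the 11 genes it lists as lower, 9 were called lower in OE15 and 5 in OE20, where 2.59% (OE15) and 1.64% (OE20) of all loci were, with a median log2 difference of -0.82 in OE15 and -0.56 in OE20. The 5 became 3 without OE20 replicate 1 or with a pseudocount of 1, with *OsCESA7* and *OsCSLF8*, a cellulose synthase-like gene, lost. The call of *OsCSLE6*, also cellulose synthase-like, in OE15 was lost without WT replicate 1 or OE15 replicate 2. The glycine-rich genes LOC_Os10g31510, LOC_Os10g31540 and LOC_Os10g31620 had a median of -1.15 in OE15 and -1.07 in OE20. They too were chosen with their fall known, so these values do not show which kind of wall gene fell more. *OsLAC10*, a laccase gene of lignin polymerisation, was the 1 gene of the list with a larger fall in OE20, -1.02, than that of LOC_Os10g31620, whereas in OE15 the value of LOC_Os10g31620, -0.81, lay within the range of the list. *OsCESA4*, *OsCESA7* and *OsCESA9*, the cellulose synthases of the secondary wall, differed from the WT by -0.79, -0.82 and -0.94 in OE15 and by -0.56 (under the limit of 1.5-fold), -0.59 and -0.76 in OE20. *OsMYB31*, a negative regulator of secondary wall synthesis, rose in OE15, with a log2 difference of 0.61 (adjusted p = 9.66e-05 from limma), and was at 0.49 in OE20, under the limit of 1.5-fold. Between the lines, limma called 0 of the 12 genes, where 2.06% of all loci were called. Of the 12, 7 had an unadjusted p under 0.05, and 4 had an adjusted p under 0.05, against 11.6% of all loci for the adjusted p. These 4 became 0 without OE15 replicate 2 or OE20 replicate 1, 1 without OE15 replicate 1 or OE20 replicate 2, and 2 with no minimum or without the trend.

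Secondary-walled cells of the root, mainly xylem and sclerenchyma, are marked by *OsCESA4*, *OsCESA7*, *OsCESA9* and *OsBC1*, a COBRA-like gene of cellulose assembly. Their summed level was 137 and 136 FPKM in OE15, 160.1 and 160.2 FPKM in OE20, against 238 and 253 FPKM in the WT. All 4 markers were lower in every OE library than in both WT libraries, as were 14.8% of all tested loci, and none was at 0. The study lists all 4 as lower in these same libraries, so their direction is no independent evidence. Like the glycine-rich genes, these markers were lower in both OE lines. Their sum was higher in both OE20 libraries than in OE15, whereas the sum of LOC_Os10g31510, LOC_Os10g31540 and LOC_Os10g31620 overlapped between the lines. The part of these markers in the result was not tested. In such bulk samples fewer cells of a type and less RNA per cell cannot be told apart.

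Among 10467 loci that averaged 10 FPKM or more, those were sought whose pattern was most like that of LOC_Os10g31510, LOC_Os10g31540 and LOC_Os10g31620. Likeness was the root-mean-square distance over the 6 libraries between log2 values centred on their own means, for which the median locus had 0.529. The nearest 6 lie on other chromosomes or elsewhere on chromosome 10, and all 6 are on the list of changed genes of the study. Their place on that list was largely set by the search. The pattern sought is the fall known when the glycine-rich loci were chosen, and the study made its list from these same libraries. LOC_Os01g42200, an expressed protein of no stated function, had a distance of 0.072, with 7.92 and 7.88 FPKM in OE15, 8.47 and 8.27 FPKM in OE20, against 18.8 and 18.8 FPKM in the WT. LOC_Os09g31430, annotated as the beta-glucosidase Os9bglu30, followed at 0.0921, with 21.8 and 20.4 FPKM in OE15, 24.2 and 23.4 FPKM in OE20, against 50.5 and 50.4 FPKM in the WT. The next were a peroxidase precursor (LOC_Os07g48060, 0.0954), a glutathione S-transferase (LOC_Os10g38740, 0.107), a nodulin MtN3 family protein (LOC_Os01g42110, 0.12) and alpha-DOX2 (LOC_Os12g26290, 0.124). LOC_Os10g31560 was farther away, at 0.321, and LOC_Os10g31690 and LOC_Os10g31710 were at 0.162 and 0.253, with 19 and 71 loci nearer than they were.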

How the data were processed

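Root RNA-seq values of 6 libraries (OE15, OE20 and WT, 2 each) were used. The submitters' processing notes name Trimmomatic 0.38, FastQC 0.11.8, HISAT2 2.1.0 and Cufflinks 2.2.1, and the authors deposited 1 table of FPKM values per library. The genome build, the annotation release and the handling of multi-mapped reads are not given in the sources used here. FPKM keeps no read totals, so no counting interval was given. Repeated locus names (4, among them LOC_Os10g31460) were dropped, which left 55982 loci.

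On log2(FPKM + 0.1), loci averaging 1 FPKM or more were tested by limma (version 3.58.1, R 4.3.3) with a trend, in one fit of 3 genotypes with 3 residual degrees of freedom and Benjamini-Hochberg adjustment over all 20627 loci. Loci were called at a change above 1.5-fold with an adjusted p below 0.05. The script was tested on simulated data. The loci described and the lists were chosen with earlier results of these data known. Named genes are the 4 loci, *OsMYB305*, neighbours from LOC_Os10g31400 to LOC_Os10g31740 that are annotated by the study or called in both lines, the 12 secondary wall genes and the 6 loci most alike. Neighbours outside this rule were named after their values were seen. Locus order is that of the names, and no coordinates were used. Alternatives were other pseudocounts, minima, normalizations, a replicate block, separate fits, no trend and each library left out.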

Additional observations from a re-analysis of the deposited data

Results flagged for a closer look

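The 21 loci examined were the 4 loci described, the 16 tested neighbours and *OsMYB305*. Of these, 9 had effects that differed between OE15 and OE20 by the limma test of the difference itself. The limit was an adjusted p under 0.05, which 11.6% of all loci met. None of the 4 loci described was among the 9, but their choice for lower expression in both lines favours that outcome. OE15 minus OE20 on the log2 scale was 0.89 for *OsMYB305* (LOC_Os01g45090) and 1.34 for LOC_Os10g31440 (adjusted p = 0.00434 from limma), both higher in OE15. The other 7 loci lie downstream and were lower in OE15. The difference was -0.32 for LOC_Os10g31640 (adjusted p = 0.00806), -0.24 for LOC_Os10g31660 (adjusted p = 0.0258), -0.39 for LOC_Os10g31680 (adjusted p = 0.00179), -0.57 for LOC_Os10g31710 (adjusted p = 0.00604), -0.40 for LOC_Os10g31720 (adjusted p = 0.00348), -0.44 for LOC_Os10g31730 (adjusted p = 0.0176) and -1.86 for LOC_Os10g31740 (adjusted p = 0.00979), all from limma. LOC_Os10g31740 was at 0.435 and 0.242 FPKM in OE15, 1.42 and 1.48 FPKM in OE20 and 1.56 and 2.01 FPKM in the WT, so that it passed the minimum only through OE20 and the WT. Its difference was -2.13 with a pseudocount of 0.01, -2.56 with quantile normalization and -0.88 with a pseudocount of 1. Over all settings the adjusted p of limma reached 0.0624 for LOC_Os10g31640, 0.124 for LOC_Os10g31660, 0.0514 for LOC_Os10g31710, 0.108 for LOC_Os10g31730 and 0.0613 for LOC_Os10g31740, and stayed under 0.05 for LOC_Os10g31440, LOC_Os10g31680 and LOC_Os10g31720.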

How the results depend on the processing

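The 4 loci kept their direction against the WT under all alternatives. A pseudocount of 1 moved log2 differences to -0.98 for LOC_Os10g31510 in OE20, -1.28 for LOC_Os10g31540 in OE15 and -0.74 for LOC_Os10g31560 in OE15, each by more than 1 SD between replicates. Leaving out an OE20 library gave -1.54 to -0.71 for LOC_Os10g31560 in OE20. LOC_Os10g31560 has no value at a minimum mean of 5 FPKM. The count of these loci called between OE15 and OE20 was 0 under every alternative. With the minimum of 5 FPKM, which tested fewer loci, the calls over all loci were 586 instead of 1134 in OE15, 336 instead of 641 in OE20 and 233 instead of 425 between the lines. With each library left out in turn they ran from 880 to 1101 in OE15, 463 to 601 in OE20 and 279 to 422 between the lines (283 without OE15 replicate 2 and 279 without OE20 replicate 1), and the called neighbours from 5 to 8 in OE15 and 2 to 3 in OE20. Nothing in the labels pairs the replicate numbers, and deviations of same-numbered libraries correlated at -0.0685 to 0.0314. With the replicate number as a block, 8 and 3 neighbours, 0 of the 4 loci and 1117, 630 and 420 loci were called (OE15, OE20 and between the lines).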

Other observations

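The downstream loci LOC_Os10g31650 and LOC_Os10g31700 did not reach the minimum mean and were not tested. LOC_Os10g31650 was at 0.525 and 0.568 FPKM in OE15, 0.39 and 0.787 FPKM in OE20, against 1.06 and 1.05 FPKM in the WT. LOC_Os10g31700 was listed at 0 in 4 of the 6 libraries, with 0.256 FPKM in OE15 replicate 1 and 0.387 FPKM in WT replicate 2.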
